A study of Mus musculus with 5 samples.

Results

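The gene-rich barcodes of tumor-draining lymph nodes (TDLNs) are the droplet barcodes in which at least 2500 genes were detected and under 10% of the counted RNA molecules (UMIs, for the unique molecular identifiers that tell them apart) came from mitochondrial genes. The filter that the study states for its scRNA-Seq data leaves these barcodes out. They were chosen by the number of genes counted in them, and that number comes from the same RNA as the marker levels given here, so each difference from other barcodes is a description without a test. Reactions 1, 2, and 3 held 249, 280, and 532 of them, or 1061 of the 126136 TDLN barcodes, in a series of 191492 barcodes. Their share was 0.398% (95% exact Clopper-Pearson interval 0.350 to 0.450) in reaction 1, 0.495% (0.439 to 0.557) in reaction 2, and 7.55% (6.94 to 8.19) in reaction 3, with a mean of 2.81% ± 4.10 (SD, n = 3 reactions). Intervals cover counting error only. Reference barcodes are those of the same reaction with at least 200 but fewer than 2500 genes and the same mitochondrial limit, and there were 62322, 56229, and 6518 of them. For comparisons nearer in depth, a class of deep reference barcodes was added after the data were seen. These are the 367, 257, and 102 of them that held at least as many UMIs as the shallowest gene-rich barcode of their reaction (5080, 5389, and 5460 UMIs). They held fewer genes than gene-rich barcodes by their definition, and only the lowest UMI count was matched. Their median was 5454, 5964, and 5722 UMIs, against 6999, 8066, and 8579 in gene-rich barcodes.

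The nodes came from male C57BL/6J mice, 8 to 10 weeks old, with subcutaneous tumors grown from implanted TRAMP-C2 cells, a prostate cancer line that can be transplanted into such mice. Isotype antibodies or checkpoint inhibition (CPI, anti-CTLA4 with anti–PD-1) had been given at days 3, 6, and 9, then DPBS vehicle or 20 mg/kg of the JAK1 inhibitor ABT-317 at day 12, and unsorted node cells were taken at day 15. The hashtag key of the authors lists isotype, CPI, and CPI with JAK inhibitor for TDLNs, and each reaction pools them. All 99 antibody features of the 3 matrices hold 0 counts, so every value covers the treatment groups together, and it is not stated whether the reactions hold different mice. The paper took its TDLN scRNA-Seq data from more than a single experiment but does not state which reactions share an experiment.

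A lymph node consists mostly of naive T and B lymphocytes that recirculate through it, with fewer dendritic cells that present antigen, macrophages that line its sinuses, and, during a response, germinal center B cells and plasma cells. A T cell carries RNA of the T cell receptor complex, a B cell carries RNA of the B cell receptor complex, and a plasma cell devotes much of its RNA to a single rearranged antibody. A droplet barcode can hold the RNA of a single cell, of several cells captured together, or RNA released from other cells into the suspension.

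Gene-rich barcodes held a median of 2733, 2807.5, and 3147 genes and 6999, 8066, and 8579 UMIs in reactions 1, 2, and 3, against medians of 1902, 1710, and 1795 UMIs in reference barcodes. Reaction 3 stood apart, with 7050 barcodes against 62575 and 56511, and its gene-rich barcodes carried 30.5% of all its UMIs, against 1.54% and 2.28%. More barcodes were deposited for reaction 1 than the cells that the methods state were prepared for a single reaction. The reference barcodes, 125069 in all, likewise outnumber the TDLN cells of the published analysis. How many reference barcodes are droplets without a captured cell was not tested in any of the 3 reactions, and each share of barcodes and each ratio to the reference rests on them. At least 4000 genes were counted in 6, 12, and 131 of the gene-rich barcodes. The median mitochondrial share of gene-rich barcodes was 2.17%, 1.38%, and 1.28% (reference 2.56%, 1.85%, and 1.74%), and no barcode with at least 2500 genes reached the limit of 10%. Barcode sequences recur between reactions, 4842 of them in reactions 1 and 2, 582 in 1 and 3, and 576 in 2 and 3, but only 1 was gene-rich in both reactions of a pair (reactions 1 and 3). Barcodes just inside the limit (fewer than 100 genes above it) held 2681, 2947, and 2921 CPM of the T cell list and those just outside (at most 100 genes below it) 2747, 3008, and 2888 CPM, where CPM is the UMIs of a list per 1000000 UMIs of all genes in the same barcodes.

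T lineage RNA made up nearly the same part of the RNA in gene-rich as in all reference barcodes, and B lineage RNA made up less. In reactions 1 and 2 the B lineage difference did not hold against deep reference barcodes, which were still shallower than gene-rich ones. The T cell list (Cd3d, Cd3e, Cd3g, Trac, Trbc1, Trbc2, Cd28, Lat, Cd5, and Themis) stood at 2609, 2974, and 2913 CPM in gene-rich barcodes of reactions 1, 2, and 3 and at 2582, 2928, and 2866 CPM in reference barcodes, a log2 ratio of 0.02 ± 0.005 (SD, n = 3). The B cell list (10 genes, among them Ms4a1, Cd79a, Cd79b, Pax5, Ebf1, Cd22, and Fcer2a) stood at 3049, 2219, and 2834 CPM against 3567, 2766, and 3302, a log2 ratio of −0.25 ± 0.05 (SD, n = 3), lower in 3 of 3 reactions. The exact Poisson 95% intervals of the B cell list did not overlap between the classes in any reaction, the closest being 2790 to 2879 against 3270 to 3334 CPM in reaction 3. This did not mark the B cell list out, since lists whose direction differed between reactions showed it too. The plasma cell list, for example, was at 574 to 615 against 746 to 777 CPM in reaction 3. The intervals treat UMIs pooled over barcodes as independent counts. Deep reference barcodes, however, held 3005, 1937, and 2936 CPM of the B cell list, so that gene-rich barcodes were above them in reactions 1 and 2 and below them in reaction 3. Of the T cell list they held 2763, 3202, and 2917 CPM, each above the gene-rich value.

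Single genes followed these sums with small differences. Of the 10 B cell genes, 8 were lower by any amount in 3 of 3 reactions and 0 were higher, where 37.8% and 13.9% of the 9976 genes compared were so (a gene was compared if the class with the higher level held at least 20 UMIs in each reaction). Ebf1, a transcription factor that commits cells to the B lineage, was at 987, 646, and 807 CPM against 1240, 912, and 1011 CPM, and Cd22, an inhibitory receptor of B cells, at 68.0, 40.0, and 57.5 against 80.8, 65.1, and 73.5 CPM. Fcer2a, the low-affinity IgE receptor of follicular B cells, was at 126, 92.6, and 157 against 163, 151, and 201 CPM. Cd79b, a signaling chain of the B cell receptor, was nearly level, at 264, 225, and 283 against 277, 231, and 281 CPM. Among the 10 T cell genes, 5 were higher and 3 lower in 3 of 3 reactions, with Cd3d at 403, 435, and 480 against 366, 376, and 393 CPM and Cd3e, another chain of the same complex, in the other direction at 542, 740, and 757 against 551, 780, and 835 CPM. None of these 20 genes reached 2-fold in any reaction.

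**Figure D1:**
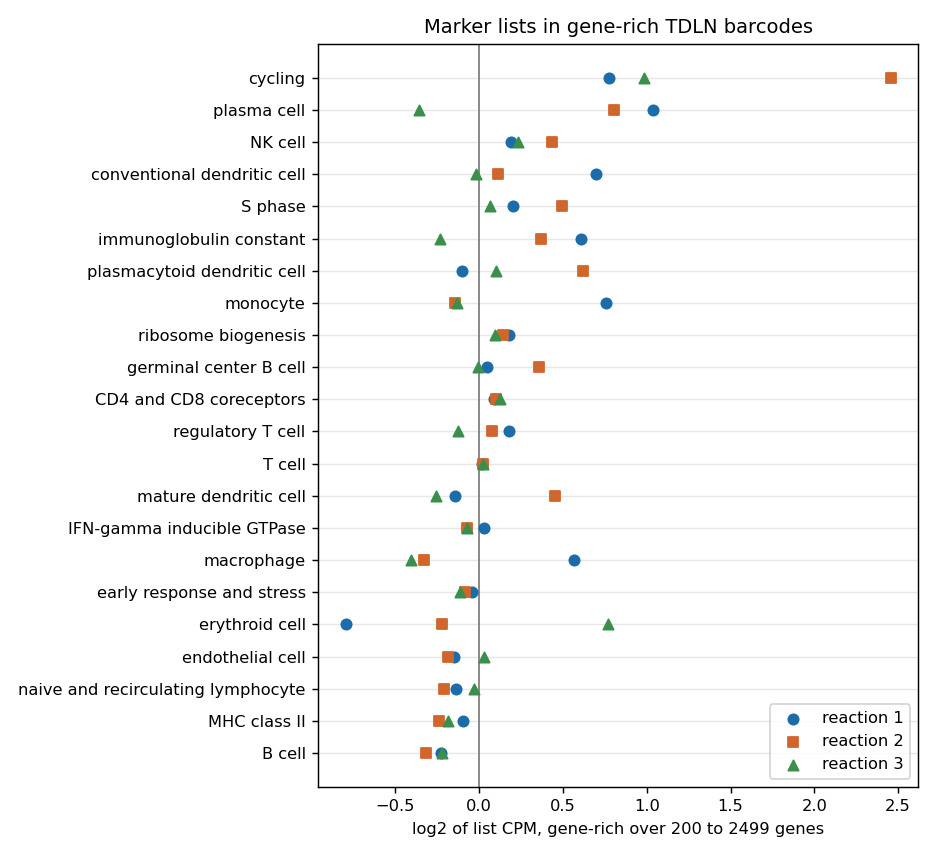
The log2 ratio of list CPM in gene-rich over reference barcodes (x axis) is plotted for each marker list (y axis) and reaction (point shape and color), for lists with at least 20 UMIs in the gene-rich barcodes of every reaction. The cycling list lies to the right in all 3 reactions, the B cell and MHC class II lists lie to the left, the T cell list lies at 0, and the plasma cell list lies to the right in reactions 1 and 2 and to the left in reaction 3.

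To compare how many barcodes carried a list at equal depth, each barcode was thinned at random to 1000 UMIs, and a list was counted as carried at 2 UMIs or more. The T cell list was carried by 71.1%, 71.4%, and 80.5% of gene-rich barcodes (reference 71.9%, 77.5%, and 76.2%). The B cell list was carried by 71.9%, 53.9%, and 77.1% (reference 85.1%, 72.8%, and 82.8%), a difference of −12.6 ± 6.62 percentage points (SD, n = 3), while deep reference barcodes carried it in 67.6%, 44.7%, and 73.5%, each below the gene-rich share. Thinning left out none of the gene-rich barcodes and 3112, 4083, and 1157 reference barcodes with fewer UMIs. Without thinning, 98.8%, 97.9%, and 100% of gene-rich barcodes carried the T cell list and 90.4%, 85.0%, and 99.6% the B cell list. Of the 6 lists of T cells, B cells, plasma cells, conventional dendritic cells, macrophages, and cycling cells, 124, 108, and 291 gene-rich barcodes carried exactly 2 and 93, 115, and 162 exactly 1.

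Many gene-rich barcodes held T and B lineage RNA together, fewer than among all reference barcodes in reactions 1 and 2 but not fewer than among deep ones. At 1000 UMIs both lists were carried by 48.2% (41.8 to 54.6) of gene-rich barcodes in reaction 1, 36.4% (30.8 to 42.4) in reaction 2, and 61.5% (57.2 to 65.6) in reaction 3, against 60.8%, 55.7%, and 62.7% of reference barcodes. Of deep reference barcodes 45.2% (40.1 to 50.5), 31.9% (26.3 to 38.0), and 50.0% (39.9 to 60.1) carried both, below the gene-rich value in each reaction, with overlapping intervals. The product of the separate shares of the lists was 51.1%, 38.5%, and 62.0% in gene-rich barcodes and 61.2%, 56.5%, and 63.1% in reference barcodes. In both classes it was slightly above the share that carried both lists, so a value near the product was not particular to gene-rich barcodes. A barcode was called one-sided if at least 90% of its T and B list UMIs, 4 or more in all, were of a single list. With so few UMIs a barcode of any class that holds both kinds of RNA can be called one-sided through the random draw. How often this happened was not tested, so these shares are not shares of barcodes of a single lineage. Among barcodes with enough UMIs, one-sided ones were 19.6% (14.3 to 25.8), 22.2% (16.5 to 28.8), and 5.18% (3.31 to 7.67) of the gene-rich against 7.32%, 9.15%, and 5.00% of the reference. The gene-rich share was above that of all reference barcodes in reactions 1 and 2, while in reaction 3 the interval held the reference value. Among deep reference barcodes the one-sided share was 22.2% (17.6 to 27.4), 34.1% (27.1 to 41.7), and 12.0% (5.93 to 21.04), above the gene-rich share in 3 of 3 reactions.

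With all UMIs in place of 1000, the T part of the T and B list UMIs showed the same split between reactions. Its median was 44.7%, 58.6%, and 50.0% in gene-rich barcodes. The middle 90% of gene-rich barcodes spanned 13.8% to 100% in reaction 1 and 16.1% to 100% in reaction 2, but only 35.2% to 70.9% in reaction 3, narrower than the 16.7% to 75% of the shallower reference barcodes there. By the same 90% rule, 26, 49, and 3 gene-rich barcodes were T-sided, 7, 9, and 0 were B-sided, and 216, 222, and 529 were two-sided, or 529 of the 532 in reaction 3. At 1000 UMIs the T-sided were 21, 30, and 13 and the B-sided 18, 12, and 10, so fewer barcodes were B-sided with all UMIs in each reaction. Most reference barcodes with at least 4 such UMIs were two-sided as well, since their middle 90% spanned 14.3% to 72.2%, 18.8% to 87.5%, and 16.7% to 75%.

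**Figure D2:**
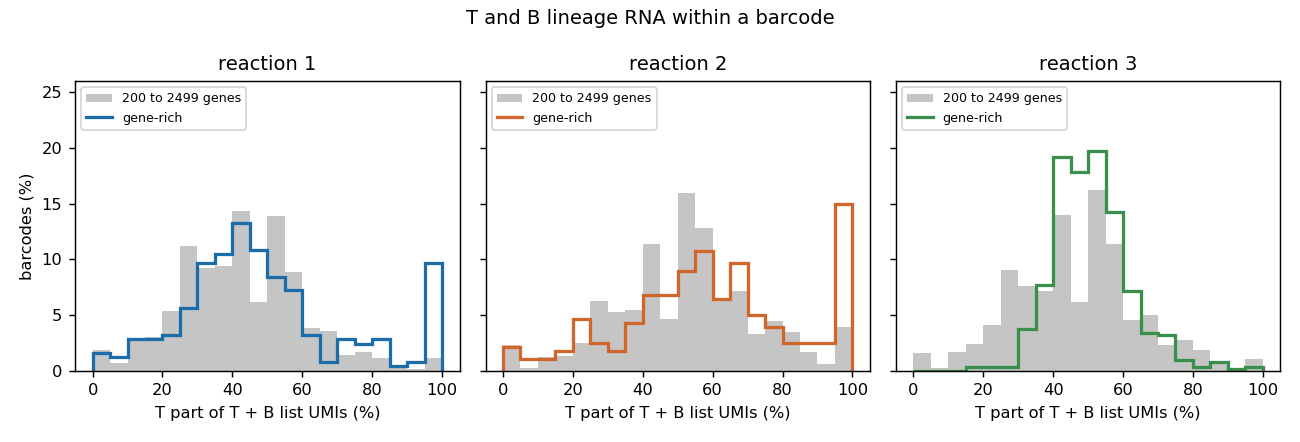
The share of barcodes (y axis, percent) is plotted over the T part of the UMIs of the T and B cell lists (x axis, percent) for gene-rich (line) and reference barcodes (gray) with at least 4 such UMIs. Reactions 1 and 2 have a separate peak of gene-rich barcodes at 95% to 100% T that reaction 3 lacks, and gene-rich barcodes of reaction 3 gather around 50%.

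RNA that the T and B lists do not use also differed between these classes. MHC class II genes, high in B cells, were at 1859, 568, and 706 CPM in T-sided and 12779, 9667, and 10843 CPM in two-sided gene-rich barcodes, and at 23338 and 20813 CPM in the B-sided ones of reactions 1 and 2. The erythroid list, of red cell RNA, was at 9.07, 4.63, and 0 CPM in T-sided and 1122, 457, and 238 CPM in two-sided ones, where 1 barcode of reaction 1 held 816 of the 1875 erythroid UMIs of all gene-rich barcodes. It was at 0 CPM in the B-sided barcodes of reactions 1 and 2, so it was low in both one-sided classes. Jchain was found in 0 of 26, 4 of 49, and 0 of 3 T-sided barcodes. How much RNA from outside the captured cells each class held was not tested.

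The antigen receptor V genes, which no list used, divided the reactions in the same way. A T cell clone usually has 1 productive T cell receptor β V gene, so 2 UMIs of such genes in a barcode of a single cell would tend to name the same gene. In gene-rich barcodes with at least 2 UMIs of Trbv genes (206, 244, and 512 barcodes), pairs of UMIs named the same gene in 33.1%, 34.2%, and 10.3% of cases on average. Pairs drawn from different gene-rich barcodes did so in 6.21%, 6.15%, and 6.48%, and pairs within reference barcodes in 11.6%, 15.3%, and 11.2%. Gene-rich barcodes of reactions 1 and 2 were thus above all reference barcodes, and those of reaction 3 were not. Pairs within deep reference barcodes named the same gene in 33.2%, 44.0%, and 9.26%, so the split between reactions was also present in these barcodes below the limit. T-sided barcodes reached 45.0% and 44.0% in reactions 1 and 2 (24 and 46 barcodes). For the α chain (Trav) the values were 29.0%, 30.4%, and 5.41% in gene-rich, 8.16%, 13.4%, and 7.29% in reference, and 25.7%, 37.8%, and 9.22% in deep reference barcodes, the last above the gene-rich value in reactions 2 and 3.

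Antibody V genes gave a like picture for the κ light chain. Within gene-rich barcodes 39.7%, 53.4%, and 21.3% of Igkv pairs named the same gene, against 24.4%, 30.7%, and 28.2% within reference barcodes and 3.17%, 3.21%, and 3.54% between gene-rich ones. Within deep reference barcodes the share was 40.3%, 65.8%, and 15.7%. The median number of different Igkv genes in a gene-rich barcode was 5, 3, and 10, with up to 25 in a barcode of reaction 3, at medians of 12, 12, and 17 Igkv UMIs. For the heavy chain (Ighv) the shares were 46.7%, 62.5%, and 31.0% in gene-rich, 50.3%, 60.6%, and 57.3% in reference, and 45.3%, 63.2%, and 24.7% in deep reference barcodes. A B cell usually uses either κ or λ light chains. UMIs of both constant regions (Igkc and any of Iglc1 to Iglc3) were found in 175, 180, and 492 gene-rich barcodes, or 70.3%, 64.3%, and 92.5%. They were found in 32.5%, 25.7%, and 34.4% of all reference barcodes and 63.2%, 43.2%, and 83.3% of the deep ones, both shallower than gene-rich barcodes. Among T-sided gene-rich barcodes the counts were 1 of 26, 2 of 49, and 0 of 3, but in B-sided ones both were found in 7 of 7 and 8 of 9 (reactions 1 and 2), so this measure did not tell B-sided from two-sided barcodes. The reads of similar V and constant genes can be shared by the counting, which was not tested here.

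**Figure D3:**
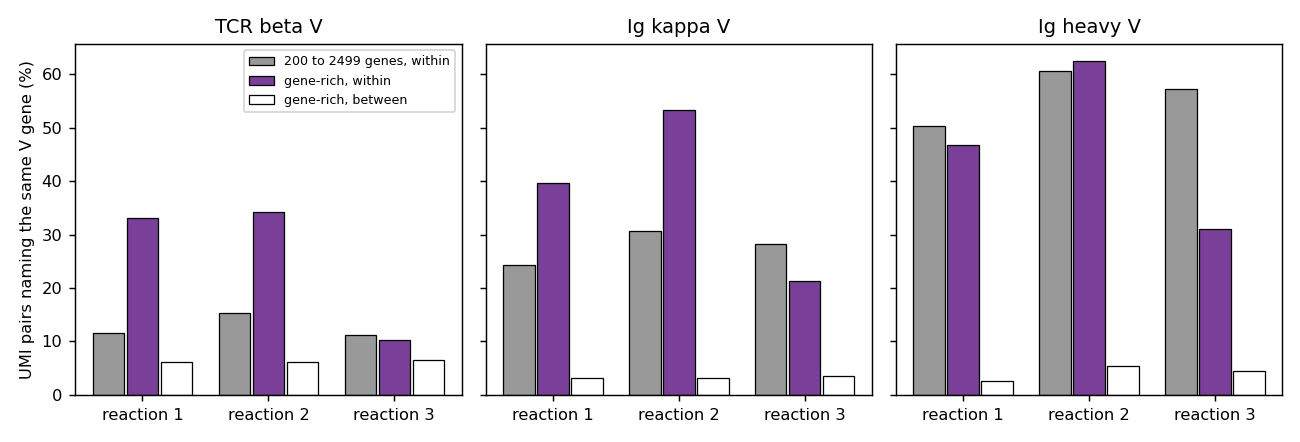
Bars give the share of UMI pairs that name the same V gene (y axis, percent) for the T cell receptor β, Ig κ, and Ig heavy chain, within reference barcodes (gray), within gene-rich barcodes (purple), and between gene-rich barcodes (white). In reactions 1 and 2 the purple bars of the T cell receptor β and κ chains exceed the gray ones, and in reaction 3 they do not.

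Plasma cell RNA was higher in gene-rich than in all reference barcodes of reactions 1 and 2 and sat in few of them. The list (Jchain, Sdc1, Prdm1, Xbp1, Mzb1, Irf4, Tnfrsf17, Derl3, Fkbp11, and Txndc5) stood at 1689, 1303, and 594 CPM in gene-rich and 825, 745, and 761 CPM in reference barcodes, or log2 ratios of 1.03, 0.81, and −0.36. Deep reference barcodes held 898, 1620, and 618 CPM, so that gene-rich barcodes were above them in reaction 1 and below them in reactions 2 and 3. Jchain, which joins antibody polymers, was at 962, 821, and 207 CPM against 428, 388, and 370 CPM. Mzb1, a chaperone of the antibody secretory pathway, was at 384, 221, and 155 against 150, 113, and 129 CPM, and Derl3, which serves protein disposal in the endoplasmic reticulum, at 33.3, 10.4, and 2.36 against 5.64, 5.58, and 6.38 CPM. Irf4, which activated B and T cells also express, was at 103, 82.6, and 97.3 against 106, 104, and 110.5 CPM. At 1000 UMIs the list was carried by 12.0%, 18.6%, and 11.3% of gene-rich and 15.7%, 15.1%, and 16.5% of reference barcodes, so the higher level was not matched by a higher share in reaction 1.

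Barcodes with at least 10 UMIs of a list and at least 5 times its pooled reference level are called rich in that list here, a rule set after the data were seen. Rich reference barcodes were not counted. The 5% of barcodes with most plasma cell UMIs held 77.0%, 61.6%, and 29.4% of them in gene-rich and 38.9%, 38.9%, and 29.5% in reference barcodes. Among gene-rich barcodes 8, 19, and 3 were rich in plasma cell RNA, and they held 73.6%, 66.0%, and 13.4% of the list's UMIs in gene-rich barcodes. The rest stood at 472, 478, and 520 CPM, a level that cannot be set against the reference, which keeps its own rich barcodes. Immunoglobulin genes and Jchain took a median of 22.9%, 6.16%, and 4.41% of the UMIs of these barcodes, with 44.9%, 41.9%, and 10.1% at most, while the median of all gene-rich barcodes was 0.329%, 0.257%, and 0.361%. The barcode of reaction 1 with the largest share of list UMIs held 4498 Igkv UMIs, of which 99.98% named Igkv3-4, and 790 Ighv UMIs, of which 99.2% named Ighv1-26. The corresponding barcode of reaction 2 held 3848 Igkv UMIs, 99.4% of them Igkv1-122, and 942 Ighv UMIs, 99.9% of them Ighv1-18. A single κ V gene took at least 90% of the Igkv UMIs in 7 of 8, 17 of 19, and 2 of 3 plasma-rich barcodes, and a single heavy chain V gene took at least 90% of the Ighv UMIs in 7 of 8, 14 of 19, and 3 of 3. The barcode of reaction 1 with the most list UMIs (542) was the exception there, with 50.5% of its 760 Ighv UMIs from the leading gene, Ighv1-39.

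The plasma-rich barcodes were not free of lymphocyte RNA, and in reaction 2 they shared V genes. They held 2 to 27, 11 to 34, and 36 to 53 UMIs of the T cell list, and 6, 19, and 3 of them were two-sided. Their leading Ighv and Igkv genes formed 7 pairs in 8 barcodes of reaction 1 and 3 pairs in 3 barcodes of reaction 3, but 5 pairs in 19 barcodes of reaction 2, where 9 barcodes led with Ighv1-18 and Igkv1-122. The heavy chain constant gene with most UMIs was Ighg1 in 7 of 8 barcodes of reaction 1 and Ighm in the other. It was Ighg1 in 13 and Ighg2c in 6 barcodes of reaction 2, and Ighg1, Ighg2b, and Ighg3 in 1 each in reaction 3. Across all gene-rich barcodes Ighg1 was at 1196, 693, and 24.3 CPM against 473, 370.1, and 255 CPM in the reference, and Ighg2b at 3.58, 14.6, and 76.4 against 16.0, 53.5, and 23.1 CPM, in the opposite direction in each reaction. Most of the Ighg1 UMIs of gene-rich barcodes in reactions 1 and 2 lay in the 8 and 19 plasma-rich barcodes (2011 and 1390 UMIs). Ighm, the constant gene of naive B cells, differed less, at 359.6, 248.5, and 356 against 345, 289, and 378 CPM.

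Cycling RNA was the most enriched of the lists in reaction 2 and was higher in 3 of 3 reactions, although in reaction 1 only through the 6 barcodes with at least 4000 genes. The list (Mki67, Top2a, Cdk1, Ccna2, Ccnb1, Ccnb2, Birc5, Aurkb, Ube2c, Bub1, Cenpf, and Tpx2) stood at 161 (144 to 180), 630 (599 to 663), and 246 (233 to 259) CPM in gene-rich barcodes against 94.0, 115, and 124 CPM, or log2 ratios of 0.78, 2.46, and 0.99. It was also above the 125, 147, and 191 CPM of deep reference barcodes. Without the barcodes of at least 4000 genes it stood at 86.9, 524, and 205 CPM, below both references in reaction 1. Top2a, which untangles DNA before division, was at 42.5, 131, and 58.3 against 19.1, 26.8, and 29.1 CPM. Ube2c, which helps end mitosis, was at 17.4, 123, and 35.8 against 14.3, 15.1, and 16.9 CPM, and Cenpf, a kinetochore protein, at 5.63, 58.8, and 17.4 against 5.00, 6.32, and 7.02 CPM. Of 7 cycling genes compared, 6 were higher by any amount in 3 of 3 reactions, where 13.9% of all genes compared were, and 0 were lower. The list was carried at 1000 UMIs by 1.61%, 11.1%, and 4.51% of gene-rich, 0.983%, 1.32%, and 1.55% of reference, and 1.36%, 4.67%, and 3.92% of deep reference barcodes.

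The cycling RNA was spread differently in each reaction. The 5% of barcodes with most cycling UMIs held 72.4%, 55.5%, and 31.2% of them in gene-rich and 53.3%, 49.2%, and 52.9% in reference barcodes. The barcodes rich in the list, 5, 34, and 11, held 59.0%, 88.0%, and 20.5% of its UMIs. The other gene-rich barcodes stood at 69.3, 89.1, and 203 CPM, which cannot be set against the reference, since the reference keeps its own rich barcodes. The S phase list, with genes of DNA replication, was at 548, 709, and 538 CPM against 476, 504, and 514 CPM, but deep reference barcodes held 484, 513, and 620 CPM, more than gene-rich ones in reaction 3. In reaction 2 the 34 cycling-rich barcodes comprised 10 T-sided, 6 B-sided, and 18 two-sided ones. Germinal center genes were found in part of them: Mef2b in 12 (39 UMIs, 106 CPM, against 17.2 CPM in the other gene-rich barcodes) and Nuggc in 8 (43.6 against 6.40 CPM). Genes of γδ T cells were found in few barcodes as well, with the receptor genes Trdv4 in 5 (138 UMIs, 376 against 11.3 CPM) and Tcrg-V6 in 5 (45 UMIs, 123 against 2.46 CPM), and the scavenger receptor gene Cd163l1 in 6 (87 UMIs, 237 against 12.8 CPM). Mef2b and Nuggc belong to the germinal center list, while Trdv4, Tcrg-V6, and Cd163l1 are in no list and were chosen after their values were seen.

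**Figure D4:**
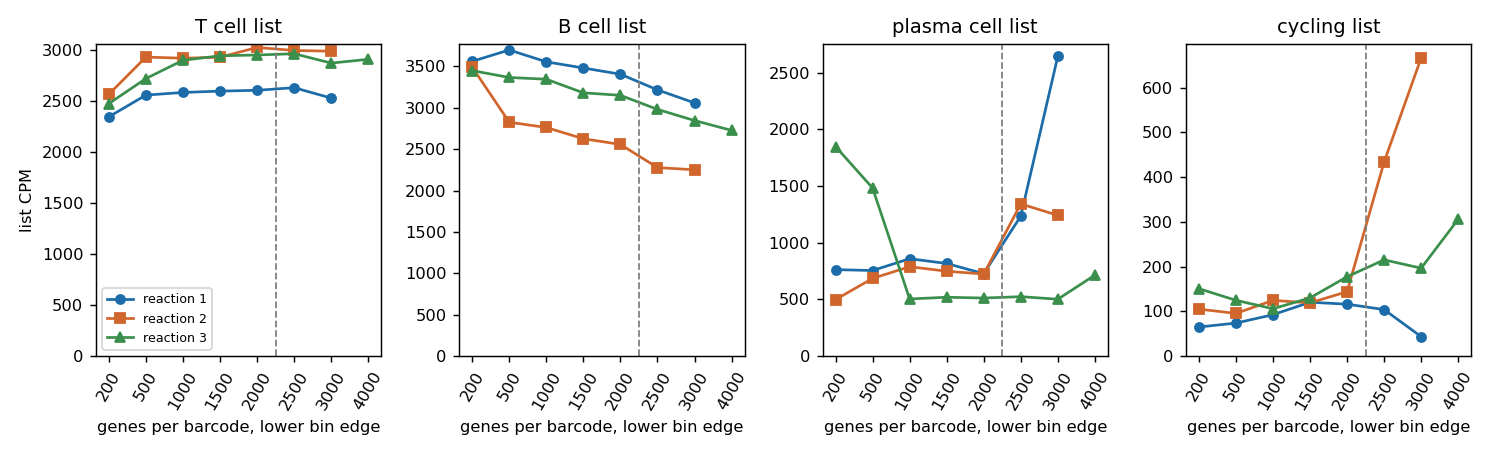
List CPM (y axis, from 0) of the T cell, B cell, plasma cell, and cycling lists is plotted over bins of genes per barcode (x axis, lower edge of each bin) for the 3 reactions, with a dashed line at the limit of 2500 genes and no point for bins under 20 barcodes. From 500 genes on the B cell list falls bin by bin, while the plasma cell list of reactions 1 and 2 and the cycling list of reaction 2 are higher in the bins past the limit.

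From 500 genes on the B cell list fell over the bins of gene count. Up to the bin that starts at 3000 genes it went from 3698 to 3059 CPM in reaction 1, 2826 to 2252 in reaction 2, and 3366 to 2846 in reaction 3, with no bin above the bin before it. Between the bins on either side of the limit it went from 3406 to 3216, 2558 to 2278, and 3151 to 2981 CPM. Within 100 genes of the limit there was no such common step, since the list went from 3020 just outside to 3414 CPM just inside it in reaction 1, from 2522 to 2299 in reaction 2, and from 2963 to 2908 in reaction 3. The plasma cell list went from 728 to 1235 CPM between these bins (those that start at 2000 and at 2500 genes) in reaction 1 and from 724 to 1343 CPM in reaction 2. In reaction 3 it was at 513 and 525 CPM there, and its highest values were in barcodes with few genes, at 1848 CPM in the bin that starts at 200 genes. The cycling list went from 144 to 434 CPM between the same bins in reaction 2 and from 178 to 215 CPM in reaction 3, but from 116 to 104 CPM in reaction 1, where it was at 43.7 CPM in the bin that starts at 3000 genes. Close to the limit few barcodes decided these levels: in reaction 2 the 68 barcodes just outside it held 1857 CPM of the plasma cell list and the 50 just inside it 486 CPM, while in reaction 1 the values were 689 CPM (123 barcodes) and 1266 CPM (66 barcodes).

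The conventional dendritic cell list was higher in gene-rich barcodes of reaction 1, mostly through Cst3, which other myeloid cells share, and macrophage RNA was sparse. The conventional dendritic cell list (Flt3, Zbtb46, Itgax, Xcr1, Clec9a, Cd209a, Batf3, Cst3, Clec10a, and Wdfy4) stood at 476, 298, and 273 CPM against 294, 275, and 277 CPM (deep reference barcodes 249.7, 312, and 273 CPM). Most of its UMIs came from Cst3, a protease inhibitor that macrophages and dendritic cells secrete (330, 201, and 183 against 161, 168, and 171 CPM), and from Wdfy4, needed for cross-presentation but present in B cells too (115, 56.7, and 71.0 against 111, 81.8, and 83.8 CPM). Defining genes of conventional dendritic cells were sparse, with Xcr1 at 2, 0, and 4 UMIs, Clec9a at 7, 1, and 5, and Itgax at 7, 4, and 10. The list was carried at 1000 UMIs by 8.43%, 3.93%, and 2.26% of gene-rich and 3.95%, 3.59%, and 4.03% of reference barcodes, and 11, 7, and 2 gene-rich barcodes were rich in it. The 11 of reaction 1 held 49.7% of its UMIs, and they held Lyz2, a lysozyme of myeloid cells, in 5 barcodes (157 UMIs). The monocyte list had a somewhat larger ratio in that reaction, at 278 against 165 CPM (log2 0.76, against 0.70 for the conventional dendritic cell list), and 3 of the 11 barcodes were also rich in it. The barcode among them with the largest share had 109 list UMIs among 7520, with 6 UMIs of the T cell list and 0 of the B cell list, and so counted as T-sided.

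The lists of mature and plasmacytoid dendritic cells were higher than in all reference barcodes in reaction 2 and not in reaction 1. The mature list was at 71.6, 132, and 82.9 CPM against 79.1, 96.2, and 99.3 CPM, and the plasmacytoid list at 67.5, 128, and 81.8 CPM against 72.6, 83.1, and 76.2 CPM. Deep reference barcodes held 72.6, 124, and 54.2 CPM of the mature and 80.3, 92.5, and 67.8 CPM of the plasmacytoid list, so the mature list of reaction 2 was nearly level with them. In reaction 2, 4 gene-rich barcodes were rich in the mature dendritic cell list and held 38.6% of its UMIs. All 4 held Fscn1, which encodes an actin-bundling protein of migrated dendritic cells (60 UMIs, 1894 CPM, against 12.7 CPM in the other gene-rich barcodes), and 3 held Ccl22. Both are list genes that helped to choose the barcodes. Ccr7 (64 UMIs) and Ccl5 (634 UMIs), which the list does not use, were in the same 4. Of these 4 barcodes 3 counted as T-sided and 1 as B-sided, and over the 4 the medians were 13.5 UMIs of the T cell list and 0 of the B cell list. In reaction 2, 5 barcodes, 1 of them among these 4, were rich in the plasmacytoid list. Its genes Siglech and Cox6a2, which helped to choose them, were found in all 5 (28 and 35 UMIs). The macrophage list (10 genes, among them Csf1r, Adgre1, C1qa, C1qb, C1qc, Cd68, and Marco) summed to 62, 46, and 67 UMIs, or 31.7 (24.3 to 40.7), 19.2 (14.0 to 25.6), and 12.2 (9.42 to 15.4) CPM against 21.4, 24.1, and 16.1 CPM. Cd68, which dendritic cells and other leukocytes express as well, gave 20, 17, and 41 of these UMIs. At 1000 UMIs the list was carried by 0 of 249, 0 of 280, and 0 of 532 gene-rich barcodes, which allows shares of up to 1.20%, 1.07%, and 0.564% at 2 UMIs or more. Over all UMIs 2.41%, 2.14%, and 1.504% carried it, and 1 barcode of reaction 1 was rich in it.

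The regulatory T cell list (Foxp3, Il2ra, Ctla4, Ikzf2, Tnfrsf4, and Tnfrsf18) was close to all reference barcodes, at 413, 440, and 365 CPM against 366, 417, and 399 CPM, and above deep reference barcodes (322, 290.1, and 327 CPM) in 3 of 3 reactions. In all, 12, 13, and 1 barcodes were rich in it, with 36.0%, 33.0%, and 1.99% of its UMIs. In the 13 of reaction 2, 9 of them T-sided, the list gene Foxp3, the transcription factor that defines regulatory T cells, was found in 8 (15 UMIs, 144 against 9.59 CPM in the other gene-rich barcodes) and Ctla4 in all 13 (77 UMIs, 740 against 83.7 CPM). Both genes helped to choose these 13 barcodes, so the contrasts are not independent of the choice. Tigit, an inhibitory receptor that the list did not use, was found in 12 of them (375 against 29.2 CPM). The 49 T-sided barcodes of reaction 2 held 1033 CPM of the cycling list and 982 CPM of the regulatory T cell list, while the 26 of reaction 1 held 27.2 and 585 CPM. The coreceptor list (Cd4, Cd8a, and Cd8b1) was at 399, 507, and 457 CPM against 375, 472, and 420 CPM, a log2 ratio of 0.10 ± 0.02 (SD, n = 3), but deep reference barcodes were at 423, 572, and 439 CPM, above the gene-rich value in reactions 1 and 2.

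**Figure D5:**
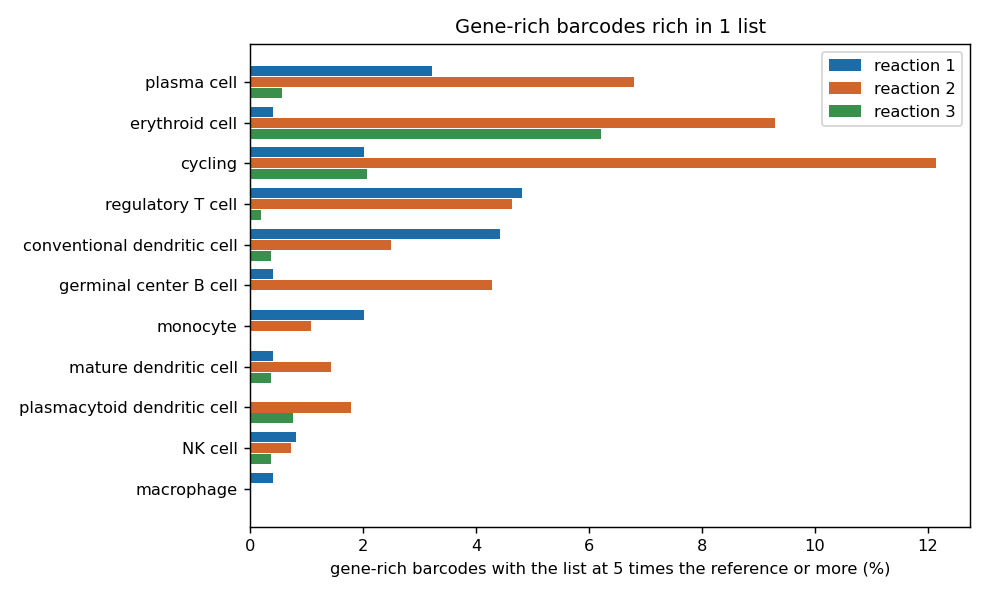
Bars give the share of gene-rich barcodes (x axis, percent) that held at least 10 UMIs and at least 5 times the pooled reference level of a list (y axis) in each reaction. Such barcodes of the reference were not counted. Cycling (12.1%) and plasma cell (6.79%) lists lead in reaction 2 beside the erythroid list (9.29%), the regulatory T cell and conventional dendritic cell lists lead in reaction 1, and in reaction 3 only the erythroid list (6.20%) exceeds 3%.

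Other cell types of a node contributed little or unevenly. The erythroid list, with hemoglobin genes, was at 959, 363, and 236 CPM against 1666, 422, and 139 CPM (deep reference barcodes 1425, 1002, and 99.9 CPM), and 1, 26, and 33 barcodes were rich in it. All of the erythroid-rich barcodes were two-sided, as were 216 of 249, 222 of 280, and 529 of 532 gene-rich barcodes in general. MHC class II genes, through which B cells and dendritic cells present antigen, were lower than in all reference barcodes in 3 of 3 reactions, at 11896, 8351, and 10788 CPM against 12730, 9853, and 12287 CPM (deep reference barcodes 11417, 7520, and 11761 CPM, lower than gene-rich ones in reactions 1 and 2). Of these 10 genes, 8 were lower than in all reference barcodes by any amount in 3 of 3 reactions, where 37.8% of the 9976 genes compared were. NK cell genes were at 71.6, 70.5, and 74.8 CPM against 62.9, 52.05, and 63.6 CPM, and 46.4, 31.2, and 52.5 CPM in deep reference barcodes. Stromal genes gave 0, 2, and 7 UMIs, mast cell and basophil genes 1, 0, and 0 UMIs, and epithelial and tumor genes 19, 31, and 41 UMIs, so gene-rich barcodes held next to no RNA of these cells. The epithelial and tumor list was as sparse in the reference, at 8.49, 9.06, and 7.97 CPM against 9.72, 12.9, and 7.44 CPM in gene-rich barcodes. The ribosome biogenesis list, which rises in growing cells, was at 2508, 2635, and 2533 CPM against 2214, 2390, and 2373 CPM (deep reference barcodes 2332, 2580, and 2551 CPM, above gene-rich ones in reaction 3). Ribosomal protein genes took 24.3%, 25.7%, and 26.01% of the UMIs against 22.7%, 23.9%, and 23.3%, and 25.6%, 29.1%, and 25.7% in deep reference barcodes.

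Over the whole transcriptome few genes differed by 2-fold in the same direction in 3 of 3 reactions. Only 2 of 9976 genes (0.0200%) were higher, both of the cell cycle, but against reference barcodes with at least 1500 genes 0 of 9254 were higher and 3 variable segments (Ighv1-85, Igkv1-99, and Trav13-2) lower. Against deep reference barcodes 3 of 6726 genes were higher (Alox5ap, Ccnb2, and Cxcl10, named after their values were seen) and 0 lower. Top2a (ENSMUSG00000020914; chromosome 11, 98992943 to 99024189 in GRCm38) was 2.22, 4.89, and 2.00 times the reference. Pclaf (ENSMUSG00000040204; chromosome 9, 65890237 to 65903266), which binds the replication clamp, was at 56.3, 181, and 76.6 CPM against 24.0, 37.3, and 37.1 CPM, or 2.34, 4.86, and 2.07 times. Lower by 2-fold were 48 genes (0.481%), 8 of them antibody or T cell receptor variable segments of the 159 such segments compared. A gene of low level can pass this rule on few UMIs in the smaller class. When at least 20 UMIs were required to be expected in the gene-rich barcodes, a rule added after the data were seen, 4 genes of 8177 were lower (Igkv12-98, Gm7008, Ighv1-9, and Ighv1-78, of which 3 are variable segments) and the same number, 2, was higher. Outside the variable segments the 48 were ranked by their ratio in the reaction nearest to no change. The lowest was Mcpt4 (ENSMUSG00000061068; chromosome 14, 56059629 to 56062313), a mast cell protease, with 1, 0, and 1 UMIs in gene-rich barcodes against 1036, 562, and 72 UMIs (8.28, 5.46, and 5.74 CPM) in reference barcodes. The next were Cstad, Gm9968, Gm49476, Cplx2, 2610027K06Rik, Zeb2os, 4833422C13Rik, Gm16150, and Spink13.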

How the data were processed

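TDLN cells were captured with 10x Genomics 5′ chemistry in 3 reactions, sequenced as poly-A RNA, and counted by the authors with Cell Ranger on GRCm38. The version is 3.1.0 in the submitters' processing notes and 7.1.0 in the matrix headers. The authors deposited UMI counts, not normalized, for 32285 genes and each barcode, and whether the matrices hold all barcodes called as cells is not stated. Antibody rows were not used, since they hold 0 counts, and no column of another sample was present.

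Counts were analysed with Python 3.11.15, numpy 2.4.6, scipy 1.17.1, pandas 2.3.3, and matplotlib 3.10.9. Gene-rich barcodes had at least 2500 genes, reference barcodes at least 200 but fewer than 2500, and both under 10% UMIs of the 13 mitochondrial genes. No doublet caller was run and no other filter was applied. UMIs of each of 27 marker lists were summed over the barcodes of a class and given in CPM with exact Poisson 95% intervals. Shares were taken after thinning each barcode without replacement to 1000 UMIs, with exact Clopper-Pearson intervals and an upper limit of 3 counts for a count of 0. Intervals and limits cover counting error only. Genes with at least 20 UMIs in the class with the higher level in each reaction were compared by their CPM ratio. The steps were checked on simulated data.

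No test was run, because the gene count that chose the barcodes comes from the same RNA, and because 3 reactions could not go below an exact p of 0.25. The members and lists were chosen with earlier results of these data known. Named genes were list genes with at least 20 UMIs in gene-rich barcodes over the 3 reactions, the 3 most abundant genes of the further lists, and genes past 2-fold in 3 of 3 reactions, with variable segments given as counts. The deep reference barcodes, the rule for barcodes rich in a list, the classes by T part over all UMIs, the V gene pairs, and genes found by them were added after the data were seen. List genes that had fewer UMIs (Xcr1 and Clec9a) were named as defining markers. Alternatives changed the reference, the gene limit, the thinning, the carrying rule, the mitochondrial limit, the total, the fold, and the UMI minimum, and left out each reaction. Single values of some list genes are not reported here.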

Additional observations from a re-analysis of the deposited data

How the results depend on the processing

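The 17 results were recomputed under 181 alternatives, of which 23 turned the sign of a value, many of them values near 0. Beside the values given further on, these were the macrophage list ratio (−0.06, but 0.0128 against a reference of at least 1500 genes and 0.278 with gene-rich barcodes of at least 3000 genes), the T cell share (−0.895 points, but 1.83 at 500 UMIs and 1.72 with 3 UMIs required), and the conventional dendritic cell share (1.01 points, but −0.291 with 1 UMI required). Deep reference barcodes, an alternative added after the data were seen, turned the mean log2 ratio to −0.0639 (T cell list), 0.0553 (B cell list), and 0.104 (macrophage list), and the difference in share to 5.68 (B cell), 3.26 (plasma cell), 6.32 (both lists), and −7.12 points (one-sided barcodes). They gave −0.13 points for macrophages and 0 genes lower, while the cycling list ratio kept its sign (0.944) and its difference in share went from 4.45 to 2.41 points. Against all reference barcodes the mean cycling ratio was 0.935 without gene-rich barcodes of at least 4000 genes, with −0.113 in reaction 1. Reaction 3, with its 532 gene-rich barcodes of 7050, decided the mean share of such barcodes, which ranged from 0.447% (without reaction 3) to 4.02% on leaving out 1 reaction. With 1 reaction left out, the mean log2 ratio ranged from 0.0184 to 0.0228 for the T cell list, −0.272 to −0.223 for the B cell list, 0.225 (without reaction 1) to 0.921 (without reaction 3) for the plasma cell list, 0.0468 to 0.405 for conventional dendritic cells, −0.367 to 0.118 for macrophages, and 0.882 (without reaction 2) to 1.72 for cycling. The difference in share of carrying barcodes ranged from −3.46 to 1.71 points (T cell), −16.1 to −9.48 (B cell), −4.45 to −0.111 (plasma cell), −0.719 to 2.41 (conventional dendritic cell), −0.0793 to −0.0491 (macrophage), and 1.79 to 6.36 (cycling), with −15.9 to −6.91 for both lists and 6.23 to 12.7 for one-sided barcodes. Genes past 2-fold in the reactions left numbered 3 to 14 higher and 131 to 912 lower, since fewer reactions had to pass.

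Against a reference of at least 1500 genes the mean log2 ratio of the T cell list was −0.00154 and that of the B cell list −0.192, with 0 genes higher and 3 lower. With gene-rich barcodes of at least 3000 genes the values were 0.00296, −0.338, 4, and 128. A total without immunoglobulin genes gave 0.0262 for the T cell list and 1 gene higher. Without thinning, where depth differs by construction, the differences in share were 8.77 (T cell), −0.228 (B cell), 44.9 (plasma cell), 45.4 (conventional dendritic cell), 1.81 (macrophage), 25.8 (cycling), and 7.09 points (both lists). For macrophages the difference of −0.0653 was −0.0138 at 500 UMIs, 0.0636 at 2000 UMIs, 0.163 with 1 UMI required, and −0.00489 with 3 required. A fold of 1.5 gave 18 genes higher and 207 lower, a minimum of 50 UMIs gave 14 lower, and the minimum of 20 UMIs expected in gene-rich barcodes gave 4 lower. The ratios are paired, gene-rich with reference barcodes of the same reaction. With no replicate block the mean log2 ratios are the same by construction (−0.255 for the B cell and 0.0201 for the T cell list), but the SD of the difference is 0.305 in place of 0.0546 for the B cell and 0.141 in place of 0.00476 for the T cell list.

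The treatments are pooled in each reaction, and the macrophage list, with 62, 46, and 67 UMIs the smallest of the 6 main lists, had the widest counting intervals of them relative to its level.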

Other observations

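B-sided gene-rich barcodes were few, 7, 9, and 0, and differed between reactions 1 and 2. In reaction 1 they held 9991 CPM of the plasma cell list and Jchain in 4 of 7 barcodes (5908 CPM). Of the 646 list UMIs behind that level 606 lay in 2 plasma-rich barcodes, and the other B-sided barcodes stood at 1086 CPM. In reaction 2 they held 3688 CPM of the cycling list and 1461 CPM of the germinal center list, with 1157 CPM of the plasma cell list. Germinal center genes over all gene-rich barcodes stood at 155, 206, and 158 CPM against 150, 160, and 159 CPM in reference barcodes, and 147, 142, and 158 CPM in deep ones, and 1, 12, and 0 barcodes were rich in them.

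Myeloid RNA other than that of dendritic cells was also uneven. The monocyte list was at 278, 128, and 120 CPM against 165, 142, and 131 CPM (deep reference barcodes 165, 151, and 119 CPM), and the 26 T-sided barcodes of reaction 1 held 99 UMIs of Lyz2 in 2 barcodes, so a barcode with few B list UMIs was not always one of a T cell. Neutrophil genes gave 38, 75, and 4 UMIs, and 2 barcodes of reaction 1 held 86.8% of its 38. The chemokine gene Ccl5, of effector T and NK cells and some dendritic cells, was found in 7 of 26, 21 of 49, and 3 of 3 T-sided barcodes. It was also in 136 of 216, 134 of 222, and 459 of 529 two-sided and 27013 of 62322, 26479 of 56229, and 2998 of 6518 reference barcodes. These counts use all UMIs, and reference barcodes were shallower. Its level was 490, 1448, and 1009 CPM in T-sided and 597, 563, and 523 CPM in two-sided ones. In reaction 2, however, most of the 625 Ccl5 UMIs of T-sided barcodes lay in 3 barcodes that were rich in the mature dendritic cell list. The higher level there thus does not describe T-sided barcodes in general. Genes of naive and recirculating lymphocytes were at 4473, 4291, and 4642 CPM against 4930, 4970, and 4735 CPM, lower in 3 of 3 reactions (deep reference barcodes 4757, 4452, and 4630 CPM, lower than gene-rich ones in reaction 3), and the early response and stress list was lower as well, at 3132, 3060, and 3345 against 3229, 3250, and 3622 CPM (deep reference barcodes 3161, 2992, and 3334 CPM, lower than gene-rich ones in reactions 2 and 3). Endothelial genes were at 188, 231, and 330 against 209, 262, and 324 CPM, and deep reference barcodes at 174, 196, and 241 CPM, below gene-rich ones in 3 of 3 reactions. Interferon-γ–inducible GTPases were at 199, 226, and 243 against 195, 238, and 256 CPM, and at 188, 210.4, and 224 CPM in deep reference barcodes, again below gene-rich ones in 3 of 3.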
